A study of Mus musculus with 16 samples.

Results

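Gene expression was compared between 2 populations of CD4+ T cells sorted from the same sham-operated mice, on 3 arrays of myosin-specific cells (TCRM sham) and 3 arrays of the recipients' own cells (ENDO sham), 6 of the 16 arrays of the series, chosen by their titles. TCRM cells were Thy1.1 CD4+ T cells from naive TCR-M donors, which carry a transgenic T cell receptor for cardiac myosin. They had been given to wild-type male BALB/c recipients (Thy1.2, 8 to 12 weeks old) 1 day before the operation. ENDO cells were the endogenous CD4+ T cells purified in parallel from those animals. The sham operation was a thoracotomy without ligation of a coronary artery, and all mice received buprenorphine. The heart-draining mediastinal nodes were taken on day 7 and CD4+ TCRbeta+ cells sorted to a purity above 98%. The series design gives 3 sham animals. Arrays of both populations after ligation of the left anterior descending artery (5 each) are given only beside sham values.

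A CD4+ T cell recognises peptide on class II molecules through a receptor assembled from variable and joining segments. Endogenous CD4+ cells of a lymph node hold many receptors and include naive, memory and regulatory cells, whereas receptor-transgenic donor cells largely share 1 receptor. Contact with antigen raises inhibitory receptors such as PD-1 and ectoenzymes such as CD38, and memory cells carry more S100 proteins and chemokines than naive cells. The comparison asked how the expression profile of transferred myosin-specific cells differed from that of endogenous cells where no infarct had been made.

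Median log2 signal was 5.38 to 5.43 on the TCRM sham arrays and 5.66 to 5.74 on the ENDO sham arrays, and the populations were treated as normalized separately. Each value was therefore turned into its percentile rank within its own array over all 41345 transcript clusters, from 0 (lowest signal) to 100. A percentile depends on the probes of a cluster as well as on its RNA, so genes were compared between populations and not with each other. Ranks correlated at 0.938 to 0.965 among TCRM sham arrays, at 0.923 to 0.956 among ENDO sham arrays and at 0.778 to 0.871 between the populations, where ENDO sham array 3 had the lowest values (0.778 to 0.793). Receptor, donor, transfer and separate normalization all differ between the populations, and their parts cannot be told apart. The labels do not say that the arrays of 1 group came from separate animals, and if they did not, the p-values cover technical spread alone.

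The populations differed widely after sham operation. Of 29828 clusters with a mean percentile of at least 30, 11946 (40.0%) differed in rank, 6710 (22.5%) with the higher rank in TCRM cells and 5236 (17.6%) with the lower (limma on percentiles, Benjamini-Hochberg adjusted p under 0.05). The median size of a called difference was 15.3 percentile points, and 9027 (30.3%) of the tested clusters were called with a difference of at least 10 points. The TCRM sham and ENDO sham arrays did not overlap for 16802 clusters (56.3%). On the log2 values as deposited the split turned over, with 5825 clusters higher and 7289 lower in TCRM cells (44.4% higher, against 56.2% on ranks), where the median of the log2 differences of all 41345 clusters was -0.22 (TCRM minus ENDO).

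**Figure D1:**
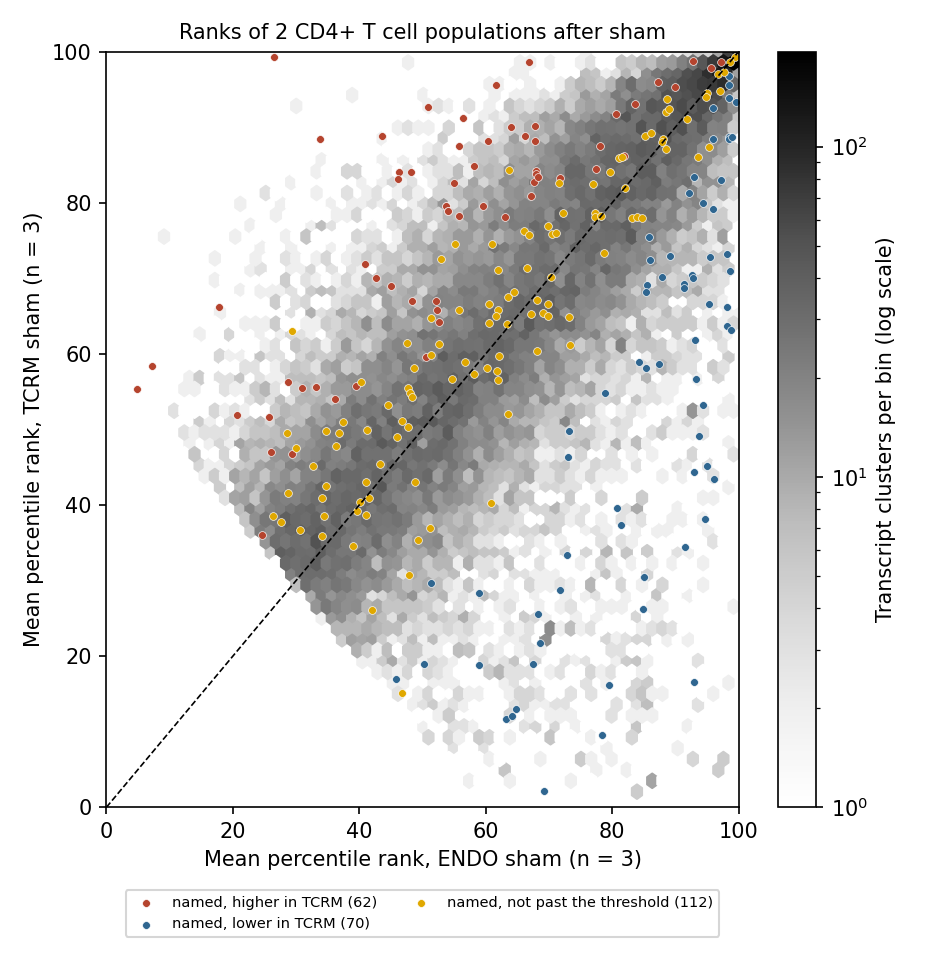
Mean percentile rank in TCRM sham cells (vertical, n = 3) and in ENDO sham cells (horizontal, n = 3) for 29828 transcript clusters, shown as grey bins with a log colour scale, with the 62 named clusters higher in TCRM cells in red, the 70 lower in blue and the 112 not past the threshold in yellow. The dashed line marks equal ranks, and Trbv13-3 is the red point at the upper left edge, with a mean percentile of 99.3 in TCRM cells and 26.5 in ENDO cells.

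Of the 41345 clusters, 270 (269 symbols) can be named, all from the authors' deposited tables of clusters that differed by 2-fold between infarction and sham within TCRM or within ENDO cells. The same sham arrays took part in that choice, so named genes are no sample of the array. Of the 270, 244 were tested here, 62 were higher and 70 lower in TCRM cells and 112 did not pass (54.1% called, against 40.0% of all tested clusters). Of the 57 tested clusters that the ENDO table gives as lower after infarction, 50 were lower in TCRM cells and 0 were higher. They had been chosen for high ENDO sham signal, and nothing is read from that count. Of the 25 tested clusters that the ENDO table gives as higher after infarction, chosen for low ENDO sham signal, 13 were higher in TCRM cells, 1 was lower and 11 did not pass. Of the 27 that the TCRM table gives as lower after infarction, chosen for high TCRM sham signal, 7 were higher, 4 were lower and 16 did not pass. Of the 136 that the TCRM table gives as higher after infarction, chosen for low TCRM sham signal, 42 were higher in TCRM cells, 15 were lower and 79 did not pass, with a median difference of 5.80 points against 0.72 over all tested clusters. Where a gene was chosen for the sham signal that sets it apart here, its difference is no independent evidence. The filter of 30 was met on the mean of both groups: for 5 of the 15 genes highest in TCRM cells (Trbv13-3, Hist2h2ac, Mir701, Mir505 and Phactr2) the ENDO mean and for 4 of the 15 lowest (Plscr1, Stfa3, mt-Tq and Olfr99) the TCRM mean was under 30, so they passed through the group where they are high. The smallest 2-sided p that an exact permutation test of 3 against 3 arrays allows is 0.1, and every named cluster whose arrays did not overlap reached it.

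Trbv13-3, a variable segment of the T cell receptor beta chain, stood at percentiles 99.4, 99.2 and 99.3 on the TCRM sham arrays, against 21.9, 39.3 and 18.3 on the ENDO sham arrays. The TCRM values lay close together at the top of their arrays, while every ENDO value was in the lower part of its array. The difference was 72.8 ± 5.67 percentile points (SE, limma adjusted p = 0.000484). The authors' ENDO table gives this segment as higher after infarction, so it was chosen for low ENDO sham signal. The labels do not name the segments of the transgenic receptor.

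The alpha chain segment Trav9-1 ran the other way, at 77.1, 66.4 and 75.1 in TCRM cells, against 95.1, 96.5 and 94.7 in ENDO cells (-22.6 ± 2.83 points, adjusted p = 0.00223). Its near copy Trav9d-1 differed by -14.2 ± 2.78 points (adjusted p = 0.00925). The arrays of the populations did not overlap for either segment. Trbv13-1, a relative of Trbv13-3, averaged 78.7 ± 4.49 in TCRM cells and 77.3 ± 1.01 in ENDO cells (SD, n = 3 each, adjusted p = 0.714). The joining segment Trbj1-4 (adjusted p = 0.0749) and the delta segment Trdv5 (86.1, 72.9 and 30.0 in TCRM cells, against 28.0, 33.3 and 26.9 in ENDO cells, adjusted p = 0.0942) did not pass either. Trav9-1 and Trav9d-1 were chosen for high ENDO sham signal, and Trbv13-1 and Trbj1-4 for low, so no direction of the segments as a group is read from these values. Segments of 1 family have similar sequences, so the identity of each signal is uncertain.

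The inhibitory receptor gene Pdcd1 and the ectoenzyme gene Cd38 stood higher in TCRM cells after sham. Pdcd1, which encodes PD-1, a receptor induced by antigen, had percentiles of 93.9, 86.8 and 81.9 on the TCRM sham arrays, against 52.7, 53.2 and 61.3 on the ENDO sham arrays. Cd38, which encodes an enzyme that consumes NAD, had 83.7, 83.6 and 85.0 in TCRM cells, against 42.5, 48.9 and 47.2 in ENDO cells. For both genes every TCRM array lay well above every ENDO array. The differences were 31.8 ± 4.18 points for Pdcd1 (SE, adjusted p = 0.00256) and 37.9 ± 2.89 points for Cd38 (adjusted p = 0.000462).

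Nrp1 (neuropilin 1, a semaphorin and growth factor coreceptor found on many mouse regulatory T cells) stood at 88.6, 87.1 and 88.8 in TCRM cells, against 66.0, 74.8 and 62.4 in ENDO cells (20.4 ± 3.41 points, adjusted p = 0.00545). The TCRM arrays were close together and the ENDO arrays were spread more widely, without reaching them. Tigit, another inhibitory receptor, did not pass, with 70.2, 63.5 and 60.4 in TCRM cells, against 52.4, 42.4 and 59.5 in ENDO cells (13.3 ± 5.10 points, adjusted p = 0.0806). Its groups did not overlap, and without ENDO sham array 3 the difference was 17.3 points (adjusted p = 0.0409). Nt5e (CD73, which forms adenosine) averaged 78.7 ± 3.30 in TCRM cells and 72.3 ± 3.79 in ENDO cells (SD, n = 3 each) and did not pass (adjusted p = 0.134).

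Of 27 genes of inhibition, exhaustion and anergy 7 were named and tested: Pdcd1 and Nrp1 were higher, none was lower and 5 did not pass, with a median difference of 13.3 points. The share higher was 28.6%, against 22.5% of all tested clusters, and is no result about the list. Of 25 regulatory T cell genes 5 were tested and Nrp1 was higher (20%, near the 22.5% of all tested clusters). The other 4 did not pass, among them Penk (the opioid precursor proenkephalin, 4.13 ± 10.9 points, adjusted p = 0.787). Of the 14 genes on the list of nucleotide and NAD ectoenzymes 4 were tested. Cd38 was higher (25% of the 4 tested, again near the 22.5% of all clusters) and Art2a-ps lower, and Nt5e and Enpp4 (0.127 ± 1.60 points, adjusted p = 0.958) did not pass. Art2a-ps belongs to the ADP-ribosyltransferases of the T cell surface, and its close paralog makes its identity uncertain. It had 71.1, 74.0 and 59.4 in TCRM cells, against 84.4, 85.1 and 86.5 in ENDO cells (-17.2 ± 4.0 points, adjusted p = 0.0169). With array 5 of each population counted as sham, as its source name says, that difference was -10.2 points (adjusted p = 0.0747). Art2a-ps was chosen for low TCRM sham signal, so its difference is no independent evidence.

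The upstream sequences of Pdcd1 and Cd38, as genes higher in TCRM cells, and of S100a6, as a gene lower in TCRM cells, are shown as the 250 bases before the RefSeq start site (GRCm38.p6), at chr1:94052554-94052803 (minus strand), chr5:43868559-43868808 (plus strand) and chr3:90612644-90612893 (plus strand). Capitals mark GGAAA, the core that NFAT factors bind, on either strand.
Pdcd1: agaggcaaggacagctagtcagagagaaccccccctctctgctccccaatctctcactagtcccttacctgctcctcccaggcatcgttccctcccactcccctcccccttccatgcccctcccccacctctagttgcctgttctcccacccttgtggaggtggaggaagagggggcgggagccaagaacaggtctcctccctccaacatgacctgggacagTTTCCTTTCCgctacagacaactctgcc
Cd38: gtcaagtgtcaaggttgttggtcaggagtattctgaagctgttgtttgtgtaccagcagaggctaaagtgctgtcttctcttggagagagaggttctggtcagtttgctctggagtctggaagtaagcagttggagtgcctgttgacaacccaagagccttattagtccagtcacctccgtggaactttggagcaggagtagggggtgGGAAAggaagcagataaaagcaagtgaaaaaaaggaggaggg
S100a6: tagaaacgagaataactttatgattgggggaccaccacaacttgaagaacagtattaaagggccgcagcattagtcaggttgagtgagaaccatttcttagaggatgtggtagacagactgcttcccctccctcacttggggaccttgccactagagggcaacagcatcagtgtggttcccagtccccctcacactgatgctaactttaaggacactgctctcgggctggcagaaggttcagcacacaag
GGAAA occurred 2 times upstream of Pdcd1, 1 time upstream of Cd38 and 0 times upstream of S100a6, and 55.6% of the 32851 upstream windows in the RefSeq table held it. Among named genes other than gene models it occurred in 31 of 52 windows (59.6%, 42 of 54 genes matched) for those higher in TCRM cells and in 8 of 14 (57.1%, 14 of 23 genes matched) for those lower. The AP-1 motif TGANTCA was in none of the 3 windows shown and in 6.75% of all windows. It was in 1 of the 52 windows of higher genes and 0 of the 14 windows of lower genes. These letters describe the windows and show no binding.

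Among transcription factors, Maf, which drives Il4 and Il21 in helper T cells, was higher in TCRM cells, with 79.7, 81.5 and 81.5, against 71.4, 64.8 and 65.1 in ENDO cells (13.8 ± 2.73 points, adjusted p = 0.00967). Every TCRM array lay above every ENDO array. Prdm1 (Blimp-1, a repressor in effector and regulatory cells) averaged 58.2 ± 7.27 in TCRM cells and 60.2 ± 5.28 in ENDO cells (SD, n = 3 each). Nfil3 (a basic leucine zipper factor) averaged 59.8 ± 4.42 in TCRM cells and 62.0 ± 1.21 in ENDO cells. Neither passed (adjusted p = 0.755 and 0.601), and their arrays overlapped.

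The helper cytokine genes that could be named, Il21 and Il4, did not differ past the threshold after sham operation. Both come from the authors' TCRM table as higher after infarction, chosen for low TCRM sham signal. Il21, a cytokine of follicular helper cells, had 52.7, 23.1 and 34.4 in TCRM cells, against 26.5, 38.1 and 27.2 in ENDO cells (6.11 ± 7.87 points, adjusted p = 0.564), with overlapping arrays and more spread among the TCRM arrays. Il4, the type 2 cytokine, had 54.5, 39.6 and 55.5 in TCRM cells, against 43.4, 38.0 and 42.2 in ENDO cells (8.66 ± 4.81 points, adjusted p = 0.195). One TCRM array of Il4 lay among the ENDO arrays, and without it (TCRM sham array 2) the difference was 13.8 points (adjusted p = 0.0308). Of the 22 follicular helper genes 8 were tested, Pdcd1 and Maf were higher and 6 did not pass, namely Tigit, Il4, Il21, Sostdc1 (adjusted p = 0.173), Tnfsf8 (0.214) and Gpm6b (0.400). The median difference of the 8 was 8.58 points, and 25% of them were called, against 40.0% of all tested clusters. Without TCRM sham array 3, Sostdc1 (13.1 points, adjusted p = 0.0253) and Tnfsf8 (7.31, 0.0165) passed.

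Of 43 cytokine and growth factor genes 7 were tested, 1 was higher, 1 lower and 5 did not pass (28.6% called, against 40.0% of all tested clusters). The higher one was Angptl2, a secreted angiopoietin-like protein, with 69.3, 65.6 and 66.2 in TCRM cells, against 45.2, 48.9 and 50.9 in ENDO cells (18.7 ± 2.84 points, adjusted p = 0.00399). The lower one was the chemokine Ccl5, described with the memory genes. Csf1, the macrophage growth factor, averaged 65.3 ± 7.46 in TCRM cells and 67.1 ± 1.04 in ENDO cells, and Tgfb3 averaged 38.7 ± 6.61 in TCRM cells and 41.0 ± 2.57 in ENDO cells (SD, n = 3 each). Neither passed (adjusted p = 0.760 and 0.680). Egln3, the sole tested gene of 14 on the hypoxia list, did not pass (adjusted p = 0.884).

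S100a6, S100a4 and Ccl5, genes of effector and memory cells, were lower in TCRM cells, and the authors' TCRM table holds all 3 as higher after infarction, chosen for low TCRM sham signal. S100a6, a calcium-binding protein abundant in memory T cells, had 64.2, 68.8 and 78.1 in TCRM cells, against 93.6, 92.3 and 91.7 in ENDO cells. Its relative S100a4 had 66.0, 76.5 and 76.4 in TCRM cells, against 89.2, 85.1 and 93.0 in ENDO cells. All TCRM arrays lay below all ENDO arrays for both, and the differences were -22.2 ± 3.53 points for S100a6 (adjusted p = 0.00464) and -16.1 ± 3.55 points for S100a4 (adjusted p = 0.014).

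Ccl5 had 83.1, 85.2 and 75.4 in TCRM cells, against 89.5, 93.6 and 93.2 in ENDO cells (-10.8 ± 2.69 points, adjusted p = 0.0211). The call was lost without ENDO sham array 2 (-10.1 points, adjusted p = 0.0602) or array 3 (-10.3 points, 0.0599). Cxcr3, a homing receptor of Th1 cells, did not pass, with 75.2, 78.9 and 80.4 in TCRM cells, against 86.4, 83.4 and 82.0 in ENDO cells (adjusted p = 0.0686), although its arrays did not overlap. Lgals1 (galectin 1) was higher by 2.23 ± 0.50 points (adjusted p = 0.0149), with 98.0, 97.0 and 98.5 in TCRM cells, against 95.6, 95.1 and 96.1 in ENDO cells. Without TCRM sham array 1 the adjusted p of Lgals1 was 0.0514, with a difference of 2.14 points. The Lgals1 call was also lost in eBayes without a trend, and each value lay near the top of its array. Of the 31 effector and memory genes 10 were tested: Maf and Lgals1 were higher, S100a6, S100a4 and Ccl5 were lower, and Il1r1, Nkg7, Tnfsf8, Anxa2 and Cxcr3 did not pass. That is 50% called, against 40.0% of all tested clusters, with no shared direction.

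Of 14 Th1 genes 2 were tested, Ccl5 was lower and Cxcr3 did not pass. Of 13 Th2 genes 3 were tested and Maf was higher, and of 14 Th17 genes 3 were tested and Maf was higher again. The other members of these lists, Il4, Nfil3, Il21 and Il1r1 (an interleukin 1 receptor, 6.78 ± 3.80 points, adjusted p = 0.198), did not pass. The Th1, Th2 and Th17 lists had 50%, 33.3% and 33.3% called, against 40.0% of all tested clusters, and nothing is read from so few genes.

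The few named genes of naive cells and of the T cell receptor complex, Trat1, Amigo2 and Treml2, were lower or did not pass. Trat1, an adaptor of the receptor complex, had 92.2, 93.9 and 91.3 in TCRM cells, against 95.6, 96.5 and 95.9 in ENDO cells (-3.53 ± 0.752 points, adjusted p = 0.0125). It is the sole named T cell identity gene of 21, stood high on all 6 arrays, and was not called in the fit to all 16 arrays (adjusted p = 0.155, -3.53 points). Amigo2, an adhesion molecule, had 86.7, 89.4 and 89.3 in TCRM cells, against 96.3, 96.2 and 95.5 in ENDO cells (-7.50 ± 0.858 points, adjusted p = 0.00171). Treml2 had the opposite sign and did not pass (3.03 ± 1.75 points, adjusted p = 0.209). Of 19 naive T cell genes 3 were tested, 2 were lower and 1 did not pass. That is 66.7% called, against 40.0% of all tested clusters (17.6% lower), and 3 genes give no result about the list.

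All tested cell cycle clusters come from the authors' ENDO table, Mcm2, Cdkn2d and Dnajc9 chosen for low and Cks2 for high ENDO sham signal, and the directions below follow that choice. Mcm2, a subunit of the replicative helicase, had 92.7, 90.7 and 87.1 in TCRM cells, against 63.8, 74.5 and 64.9 in ENDO cells (22.5 ± 3.38 points, adjusted p = 0.00390). Cdkn2d, an inhibitor of the cyclin D kinases, had 82.1, 86.8 and 82.5 in TCRM cells, against 65.4, 71.2 and 67.3 in ENDO cells (15.8 ± 2.61 points, adjusted p = 0.00522). The arrays did not overlap for either gene. Dnajc9, a histone chaperone, did not pass (3.72 ± 1.32 points, adjusted p = 0.0649), and passed without ENDO sham array 1 (5.01 points, 0.0244). The 2 clusters named Cks2 carried identical values, shared with another cluster annotated to a gene model, so their identity is uncertain. They had 32.2, 22.7 and 36.4 in TCRM cells, against 90.8, 83.0 and 81.4 in ENDO cells (adjusted p = 0.000629). Of 39 cell cycle and replication genes 5 clusters were tested, 2 were higher, 2 (both Cks2) were lower and 1 did not pass, from which nothing is read.

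**Figure D2:**
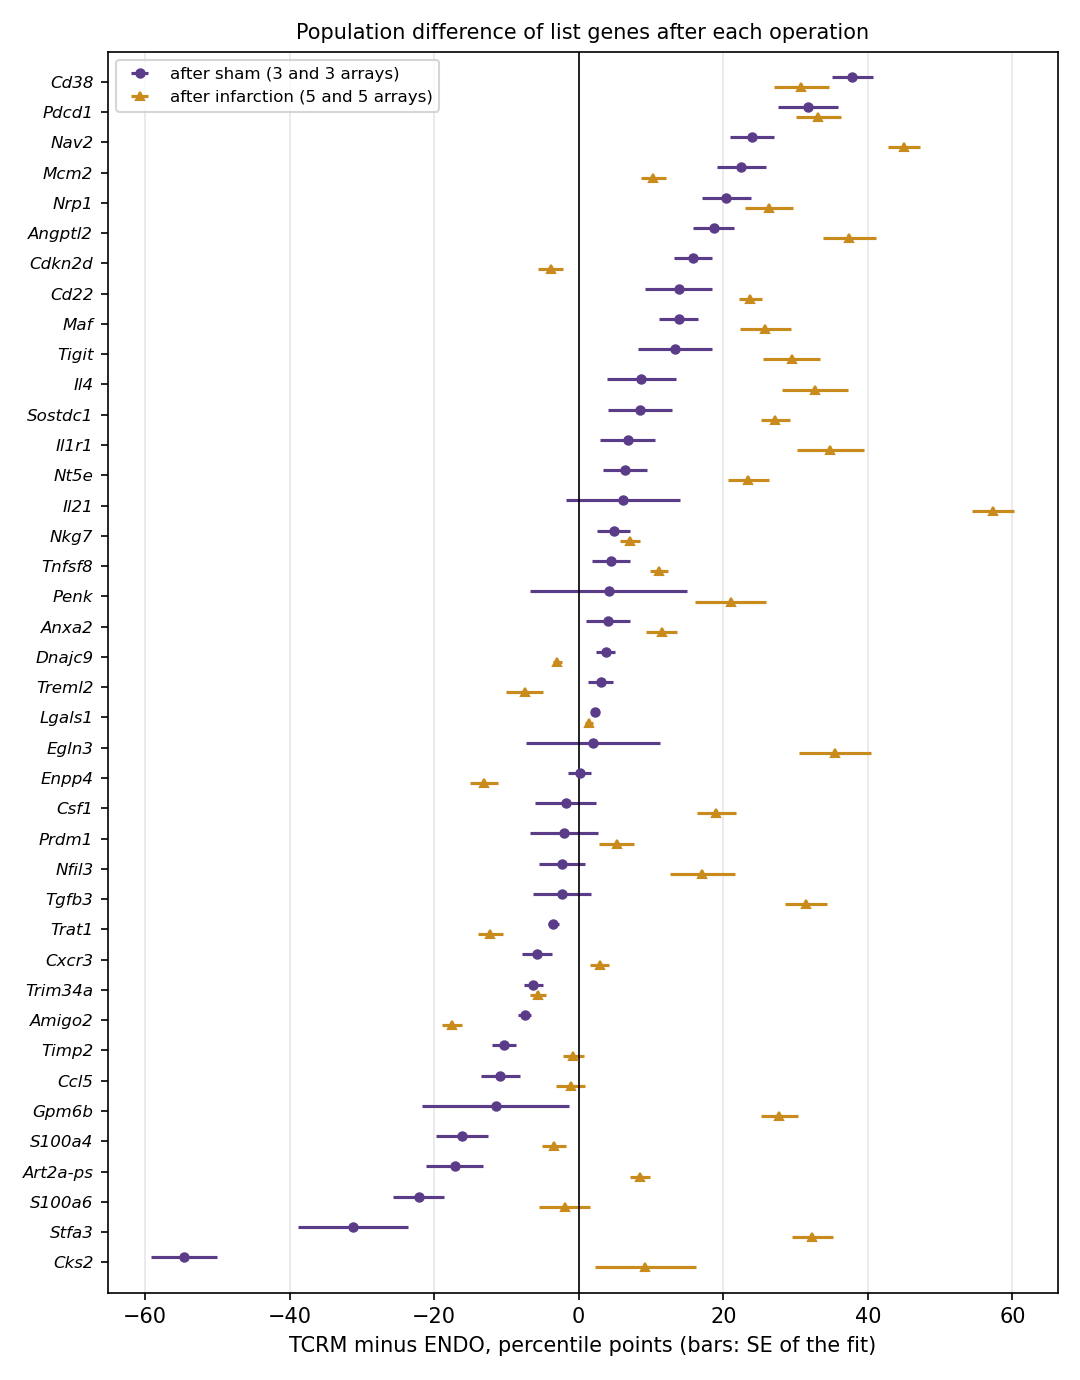
Difference in percentile rank, TCRM minus ENDO, with the SE of the fit, for the tested genes of the 20 lists after sham (circles, 3 arrays against 3) and after infarction (triangles, 5 arrays against 5), 1 cluster per gene. Cd38 and Pdcd1 lie above 30 points after both operations, while Il21 stands at 6.11 points after sham and 57.3 points after infarction.

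Syt11, a synaptotagmin of vesicle traffic, had 90.3, 87.1 and 87.8 in TCRM cells, against 26.1, 38.3 and 36.7 in ENDO cells (54.7 ± 3.93 points, adjusted p = 0.000388). Ptpn11, the tyrosine phosphatase SHP-2, had 95.4, 94.5 and 96.7 in TCRM cells, against 53.7, 69.5 and 61.4 in ENDO cells (34.0 ± 3.98 points, adjusted p = 0.00184). Serinc5, a multipass membrane protein known for restricting retroviral particles, had 89.2, 92.4 and 92.0 in TCRM cells, against 54.9, 59.7 and 54.4 in ENDO cells (34.9 ± 2.60 points, adjusted p = 0.000435). For each of the 3 genes the TCRM arrays sat close together in the top part of the array, and every ENDO array sat well below them.

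Atp2b4, a calcium pump of the plasma membrane, had 68.8, 75.3 and 71.5 in TCRM cells, against 38.9, 45.3 and 38.6 in ENDO cells (adjusted p = 0.00124). Tbc1d4, a Rab GTPase-activating protein, had 88.2, 81.8 and 79.5 in TCRM cells, against 62.5, 40.8 and 35.1 in ENDO cells (adjusted p = 0.00974), with 1 ENDO array well above the other two. Phactr2, a regulator of phosphatase 1 and actin, had 65.5, 56.6 and 46.8 in TCRM cells, against 32.0, 32.6 and 21.5 in ENDO cells (adjusted p = 0.0107). The groups did not overlap for these 3 genes.

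Secreted and guidance proteins were also among them. Twsg1, which binds bone morphogenetic proteins, had 87.3, 78.0 and 82.6 in TCRM cells, against 64.7, 52.8 and 47.3 in ENDO cells (adjusted p = 0.00783). Ntn4, a netrin, had 86.3, 86.4 and 79.4 in TCRM cells, against 52.0, 57.3 and 35.3 in ENDO cells (adjusted p = 0.00571). Nav2, a neuron navigator of the cytoskeleton, had 68.7, 67.2 and 70.9 in TCRM cells, against 47.6, 46.7 and 40.6 in ENDO cells (adjusted p = 0.00228). The TCRM arrays lay above the ENDO arrays for all 3. Ntn4 was chosen for high TCRM sham signal, so its difference is no independent evidence, while Twsg1 and Nav2 were chosen for low TCRM sham signal. Of the 27 genes on the matrix, repair and guidance list 8 were tested: Nav2, Nrp1 and Angptl2 were higher, Timp2 (-10.3 ± 1.68 points, adjusted p = 0.00505, an inhibitor of matrix proteases) and Amigo2 were lower, and Csf1, Tgfb3 and Gpm6b did not pass. That is 62.5% called, against 40.0% of all tested clusters, with no shared direction. Timp2 was chosen for low TCRM sham signal. A histone H2A gene, Hist2h2ac, had 75.4, 42.1 and 57.5 in TCRM cells, against 7.05, 7.32 and 7.39 in ENDO cells (adjusted p = 0.00447). Its ENDO values lay near the bottom of the arrays and its near-identical relatives make its identity uncertain.

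**Figure D3:**
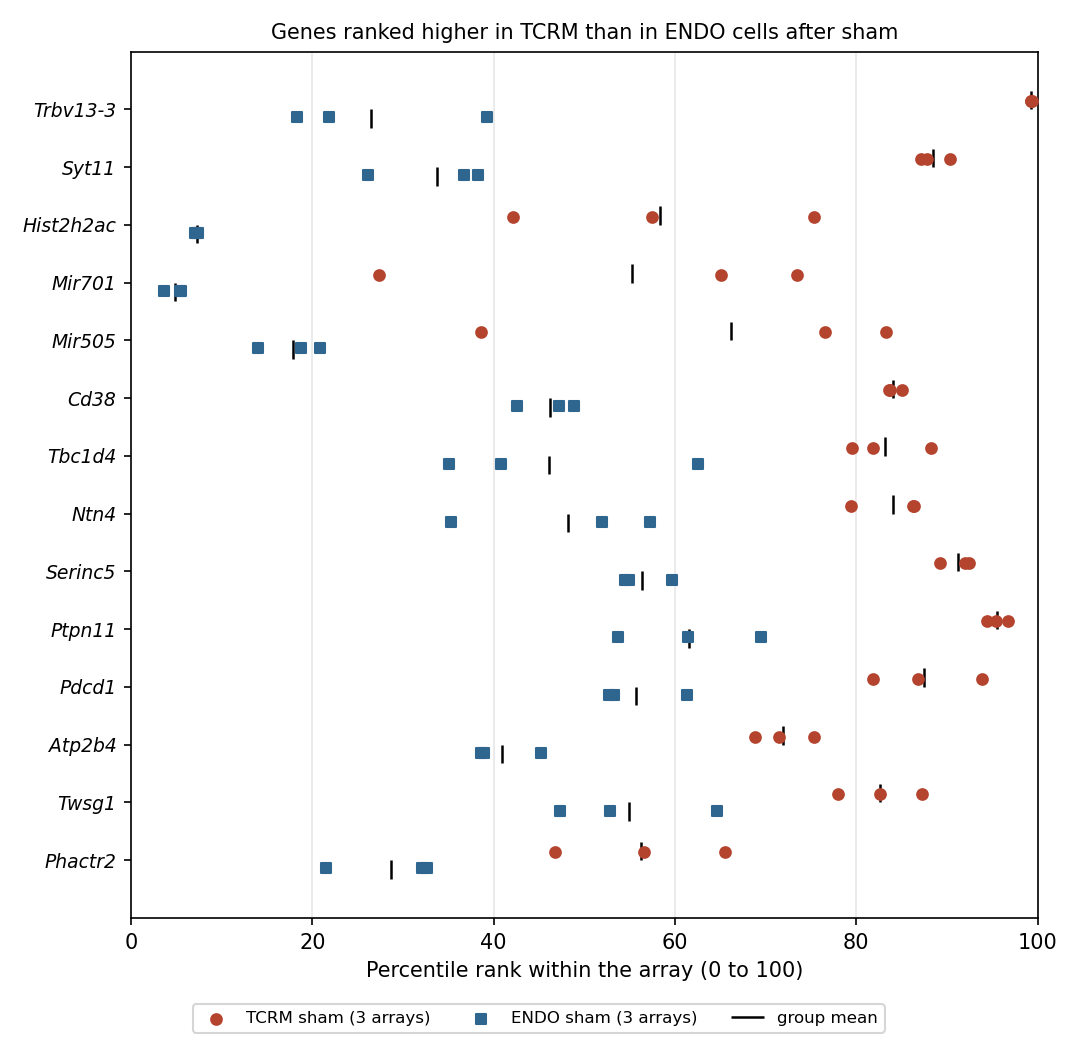
Percentile rank within the array (horizontal) of 14 of the 15 named genes with the highest positive difference after sham, for 3 TCRM sham arrays (red circles, upper row of each gene) and 3 ENDO sham arrays (blue squares, lower row), with the group mean as a black tick. The groups do not overlap for any of the 14, and Mir701 and Mir505 have the widest TCRM spread.

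Both microRNA clusters among these genes varied more than the others. Mir505 had 76.6, 83.2 and 38.6 in TCRM cells, against 18.7, 14.04 and 20.8 in ENDO cells (48.3 ± 11.3 points, adjusted p = 0.0175). Mir701 had 27.4, 73.5 and 65.1 in TCRM cells, against 5.50, 3.61 and 5.46 in ENDO cells (50.5 ± 11.5 points, adjusted p = 0.0160). One TCRM array of each lay far below the other two, and still above all ENDO arrays. The Mir505 call was lost without TCRM sham array 1 (43.0 points, adjusted p = 0.0618) or ENDO sham array 1 (48.7 points, 0.05005). The Mir701 call was lost without TCRM sham array 3 (45.5 points, 0.0503). Another microRNA cluster, Mir130b, did not pass (adjusted p = 0.334), and Mir3094 was under the filter. Mir505 was chosen for low ENDO sham signal and Mir701 for high TCRM sham signal.

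The mature forms of both are given from RefSeq (GRCm38.p6), at chrX:60394416-60394437 and chrX:60394451-60394473 (minus strand) and at chr5:111004208-111004227 and chr5:111004170-111004190 (plus strand), with the seed, bases 2 to 8, in capitals.
mmu-miR-505-3p: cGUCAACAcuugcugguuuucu
mmu-miR-505-5p: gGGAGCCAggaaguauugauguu
mmu-miR-701-3p: uAUCUAUUaaagaggcuagc
mmu-miR-701-5p: uUAGCCGCugaaauagaugga
The 4 seeds differ from each other. A transcript cluster does not tell the arms apart, nor a mature form from its precursor.

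Genes lower in TCRM cells were led by Olfr99, an olfactory receptor gene, with 29.4, 10.6 and 9.85 in TCRM cells, against 95.4, 90.7 and 92.8 in ENDO cells (-76.3 ± 5.65 points, adjusted p = 0.000426). Dcdc2b, a doublecortin domain gene, had 71.3, 73.1 and 75.3 in TCRM cells, against 98.6, 98.4 and 97.4 in ENDO cells (-24.9 ± 1.33 points, adjusted p = 0.000214). Both owe their names to the authors' ENDO table, where their sham average exceeds that after infarction. Ddx26b had 66.2, 65.3 and 76.0 in TCRM cells, against 92.6, 92.3 and 89.3 in ENDO cells (adjusted p = 0.00334). Plscr1, a phospholipid scramblase induced by interferon, had 31.1, 29.3 and 28.6 in TCRM cells, against 52.8, 52.6 and 48.6 in ENDO cells (adjusted p = 0.00204). In the interferon list 1 of 30 genes was named, Trim34a, which was lower in TCRM cells (-6.27 ± 1.33 points, adjusted p = 0.0122). Trim34a, like Olfr99 and Dcdc2b, was chosen for high ENDO sham signal, and Ddx26b and Plscr1 for low TCRM sham signal. None of these differences is independent evidence.

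Gpr155, a membrane protein of the receptor type, had 59.8, 42.2 and 62.6 in TCRM cells, against 84.0, 77.8 and 74.7 in ENDO cells (-23.9 ± 6.01 points, adjusted p = 0.0218). Without ENDO sham array 1 its difference was -21.4 points (adjusted p = 0.0700), and with array 5 counted as sham it was -13.1 points (0.107). Vps50, a subunit of an endosomal recycling complex, had 69.6, 68.8 and 69.0 in TCRM cells, against 90.4, 87.2 and 79.2 in ENDO cells (adjusted p = 0.00887), and with array 5 counted as sham the difference was -7.39 points (0.396). The groups did not overlap for any gene of this and the preceding paragraph. Gpr155 was chosen for low TCRM sham signal and Vps50 for high ENDO sham signal, so neither difference is independent evidence.

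Several small RNA clusters were lower in TCRM cells. The mitochondrial tRNA mt-Tq had 22.5, 8.42 and 17.8 in TCRM cells, against 66.8, 82.2 and 89.3 in ENDO cells (adjusted p = 0.00122). The 5S ribosomal RNA n-R5s14 had 45.4, 68.1 and 62.3 in TCRM cells, against 87.9, 83.0 and 91.4 in ENDO cells (adjusted p = 0.0122). Both groups were separate for these clusters, and the 5S copies are too alike to be told apart. Another 5S cluster, n-R5s54, was higher in TCRM cells (11.5 ± 3.67 points, adjusted p = 0.0473). Of the 5 tested 5S clusters 1 was higher, 1 lower and 3 did not pass. That is 40% called, against 40.0% of all tested clusters, and no direction of 5S RNA is read. The mt-Tq cluster was chosen for high ENDO sham signal, so its difference is no independent evidence. The n-R5s14 cluster was chosen for high TCRM sham signal.

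The small nucleolar RNA Snord61 had 76.0, 38.6 and 74.9 in TCRM cells, against 98.8, 99.2 and 98.5 in ENDO cells (-35.7 ± 9.80 points, adjusted p = 0.0294), with 1 TCRM array far below the other two. Without that array, TCRM sham 2, the difference was -23.4 points. The call was lost without ENDO sham array 1, 2 or 3, with differences of -35.7, -35.5 and -35.8 points. The Cajal body RNA Scarna9 had 30.6, 62.7 and 25.4 in TCRM cells, against 79.3, 87.8 and 75.3 in ENDO cells (-41.2 ± 9.97 points, adjusted p = 0.0193). Its call was lost without TCRM sham array 1 (-36.7 points) or 3 (-34.2), and without ENDO sham array 1 (-42.0) or 2 (-37.7). With array 5 counted as sham it was lost too (-22.9 points, adjusted p = 0.131). Snord61 and Scarna9 were chosen for low TCRM sham signal, so their differences are no independent evidence. Over all 13 tested small RNA clusters with a symbol of this kind (microRNA, small nucleolar and Cajal body RNA, 5S RNA and mitochondrial tRNA), 3 were higher, 4 were lower and 6 did not pass. That is 53.8% called, against 40.0% of all tested clusters. Most of the called members were chosen for the sham signal that sets them apart, so nothing is read about a direction of the class. This class was formed after its values were seen.

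**Figure D4:**
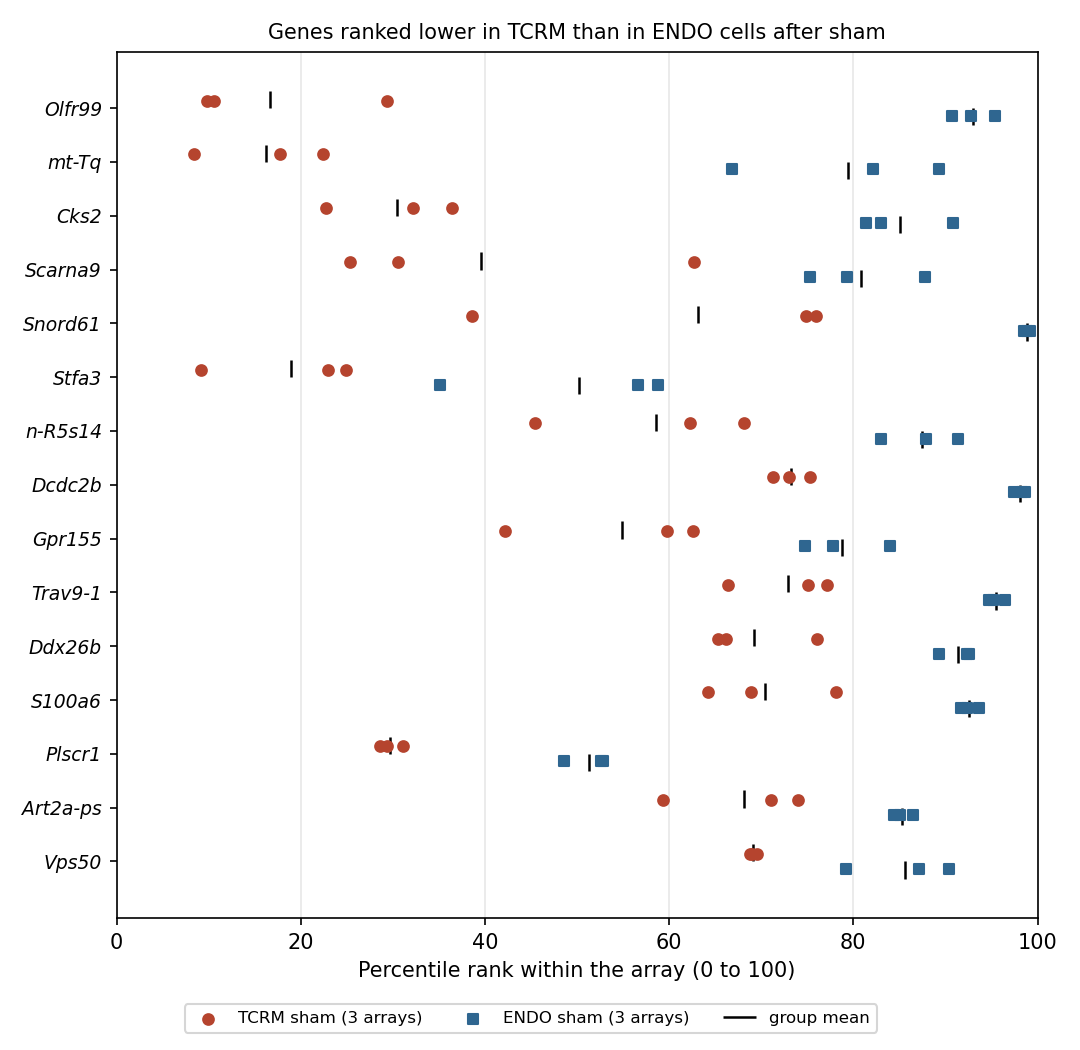
Percentile rank within the array (horizontal) of the 15 named genes with the most negative difference after sham, for 3 TCRM sham arrays (red circles, upper row of each gene) and 3 ENDO sham arrays (blue squares, lower row), with the group mean as a black tick and 1 of the 2 Cks2 clusters shown. All TCRM values lie below all ENDO values, and Snord61 and Scarna9 each have 1 TCRM array apart from the other two.

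Markers of other cells could be read through 1 gene per list. Stfa3, a cystatin found in myeloid cells (1 of 23 myeloid genes named), had 24.9, 22.9 and 9.13 in TCRM cells, against 56.6, 58.8 and 35.2 in ENDO cells (-31.2 ± 7.56 points, adjusted p = 0.0194). Close paralogs make its identity uncertain, and the call was lost without TCRM sham array 3 (-26.3 points), ENDO sham array 1 (-28.0) or ENDO sham array 2 (-26.9). With array 5 counted as sham it was lost too (-15.8 points, adjusted p = 0.261). Cd22 (1 of 22 B cell genes) had 67.6, 64.4 and 52.2 in TCRM cells, against 50.5, 44.0 and 48.2 in ENDO cells and did not pass (13.8 ± 4.60 points, adjusted p = 0.0539). It passed without TCRM sham array 3 (18.4 points, adjusted p = 0.0143) and in the fit to all 16 arrays (adjusted p = 0.00314). Nkg7 (1 of 17 CD8 and NK cell genes, 4.84 ± 2.30 points, adjusted p = 0.139, and 0.0263 without TCRM sham array 3) and Prdm1 (1 of 9 plasma cell genes) did not pass, and Timp2 (1 of 17 stromal and endothelial genes) was lower. The defining markers of these cells, and Cd4 and the CD3 chains, are unnamed here and were not analysed. Stfa3 and Timp2 were chosen for low TCRM sham signal, so their differences are no independent evidence. The part of other cells in the differences was not tested.

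The same measure was read on the 10 arrays titled as infarction, for the clusters that passed the filter on the sham arrays. The sham and infarction fits share no array, but array 5 of each population has a source name that says sham, and both operations share the separate normalization. There 16303 of the 29828 clusters (54.7%) differed, 8743 (29.3%) higher and 7560 (25.3%) lower in TCRM cells. Of the 6710 clusters higher after sham, 5631 were also higher after infarction, which is 83.9% of the sham calls and 64.4% of the infarction calls, and 8 were lower. Of the 5236 lower after sham, 4380 were also lower after infarction, 83.7% of the sham calls and 57.9% of the infarction calls, and 6 were higher. Most clusters that set the populations apart after sham therefore did so in the same direction after infarction.

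**Figure D5:**
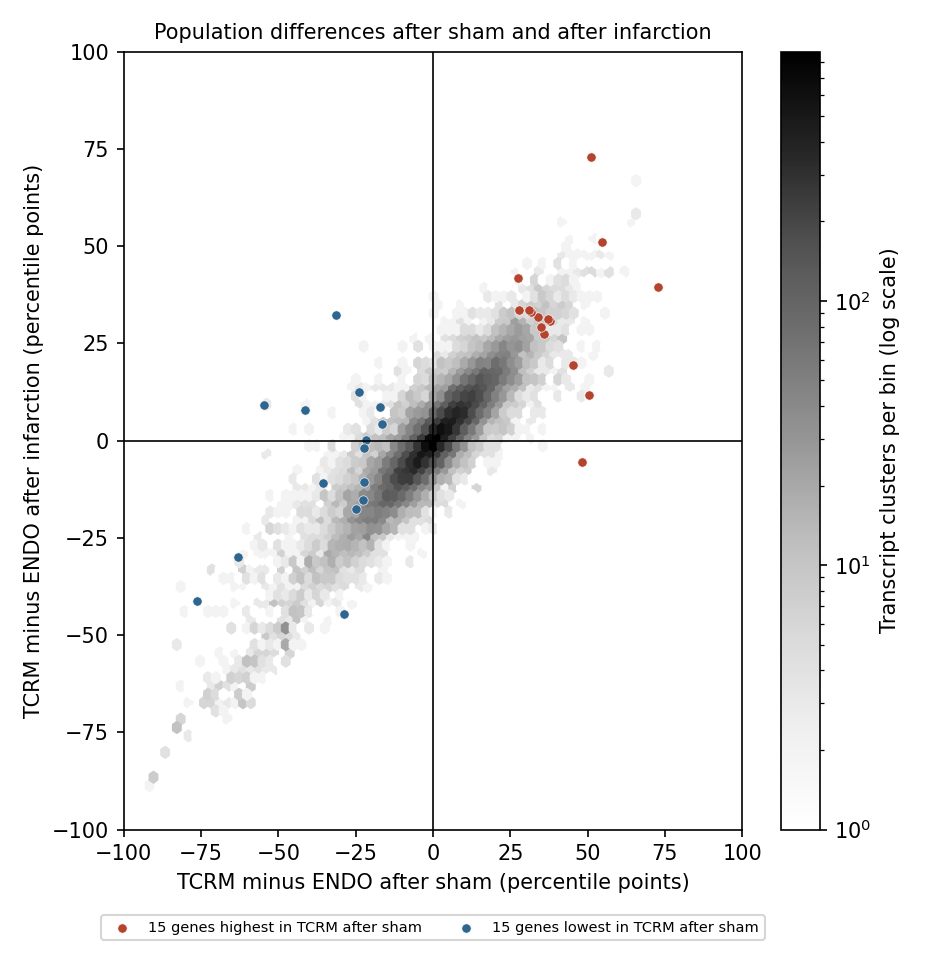
Difference in percentile rank, TCRM minus ENDO, after sham (horizontal, 3 arrays against 3) and after infarction (vertical, 5 arrays against 5) for 29828 transcript clusters, as grey bins with a log colour scale, with the 15 highest (red) and 15 lowest (blue) named genes after sham. Most bins lie along the diagonal, and Stfa3 is the blue point at -31.2 points after sham and 32.3 points after infarction.

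Of the 15 genes highest in TCRM cells after sham, 14 were also higher after infarction, where 83.9% of all clusters higher after sham were. Pdcd1 differed by 33.1 points after infarction (adjusted p = 1.92e-05), Cd38 by 30.8 (0.000100), Syt11 by 51.0 (4.4e-06) and Trbv13-3 by 39.6 (0.000878). These values lie near those after sham except for Trbv13-3. Its TCRM percentile averaged 99.5 ± 0.0614 after infarction (SD, n = 5) and 99.3 ± 0.0906 after sham (SD, n = 3), while its ENDO percentile averaged 59.9 ± 17.4 after infarction and 26.5 ± 11.2 after sham. Mir505 was the exception, with -5.61 points after infarction (adjusted p = 0.564). Without array 5 of each population its difference was -16.0 points (0.0149), lower in TCRM cells.

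Of the 15 genes lowest in TCRM cells after sham, 7 were also lower after infarction, 5 did not pass and 3 were higher. Of all clusters lower after sham, 83.7% were also lower after infarction. Of the 15 genes, 8 were chosen for low TCRM sham signal and 6 for high ENDO sham signal. That choice favours a smaller difference after infarction, so nothing is read from the count. S100a6 differed by -1.91 points after infarction (adjusted p = 0.670) and Plscr1 by 0.163 (0.968), and neither passed. Without array 5 of each population S100a6 differed by -5.36 points and was lower in TCRM cells (adjusted p = 0.0264). The 3 that were higher after infarction were Stfa3 (32.3 points, adjusted p = 1.12e-05), Gpr155 (12.4, 0.000689) and Art2a-ps (8.51, 0.000518). Genes that did not pass after sham and did after infarction included Il21 (57.3 points, 7.13e-07), Il4 (32.7, 0.000226), Tigit (29.5, 0.000166) and Tgfb3 (31.5, 1.62e-05). Those names come from the authors' TCRM table, chosen for their rise after infarction, and the difference between the operations was not tested here.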

How the data were processed

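The authors deposited log2 signal per transcript cluster for 16 Affymetrix whole transcript arrays, and the submitters' processing notes name Affymetrix Expression Console and Transcriptome Analysis Console. Versions, summarisation and genome build were not given in the sources used here. The authors' deposited tables gave symbols, and their signed fold score was not used. Of 468 clusters in them 270 had 1 symbol, 18 several and 180 none, and 207 of 269 symbols were in the RefSeq table of GRCm38.p6 and 10 more as a synonym.

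Percentile ranks were computed within each array over 41345 clusters with ties averaged, and 11517 clusters with a mean under 30 over the 6 arrays were then left out, 26 of them named. limma 3.58.1 in R 4.3.3 fitted 1 mean per group to the 6 arrays (lmFit, eBayes with trend), and 2-sided p-values were adjusted by Benjamini-Hochberg over 29828 clusters (threshold 0.05). The fit was also run on simulated arrays in which few clusters were changed. That setting does not check data in which 40.0% of tested clusters were called. The infarction arrays were fitted alike. Of the tested clusters, 1108 had values identical to another. Figures used matplotlib 3.10.9 in python 3.11.15.

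Named are, among clusters with 1 symbol, the 15 most different in each direction whose arrays do not overlap (1 of them is not reported here), all members of 20 lists (375 genes, 40 named) and genes in both deposited tables, with gene models only counted. Members and lists were chosen with earlier results of these data known. Groups follow the titles, although array 5 of each infarction group has a source name that says sham. Deviations of sham arrays with the same number correlated at -0.0024, -0.012 and 0.0035, so the number was used as a block only as an alternative. The number of arrays limits the precision.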

Additional observations from a re-analysis of the deposited data

Results flagged for a closer look

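For 4 genes every TCRM array lay on one side of every ENDO array after sham and on the opposite side after infarction. The infarction minus sham change of the TCRM minus ENDO difference was 63.6 percentile points for Stfa3, 36.3 for Gpr155, 25.7 for Art2a-ps and -6.70 for Dnajc9. The authors' TCRM table gives Stfa3, Gpr155 and Art2a-ps as higher after infarction, and their ENDO table gives Dnajc9 as higher. These genes were chosen for that change on these same arrays, so its direction was set by the choice and nothing is read from it. The change itself was not tested.

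Among the groups of 5 infarction arrays, a single array stood apart in 13 of 132 measures of the named genes, where chance gives about 1 in 20. The gap to the nearest array divided by the range of the group was as follows. On ENDO infarction array 5 it was 0.932 for Snord61, 0.822 for S100a6 (percentile 77.2, against 93.7 to 97.3 on the others), 0.787 for Ccl5, 0.779 for Treml2, 0.771 for Trat1, 0.739 for Mcm2 and 0.727 for Mir505. On ENDO infarction array 1 it was 0.778 for Prdm1. On TCRM infarction array 1 it was 0.839 for Trim34a, 0.751 for Dnajc9 and 0.742 for Cdkn2d. It was 0.841 for n-R5s14 on TCRM infarction array 3 and 0.723 for Trbv13-3 on TCRM infarction array 5. Of the 7 flags in ENDO cells on array 5, whose source name says sham, all concern the infarction values and none the sham fit.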

How the results depend on the processing

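The number of clusters that differed was 11946. With 1 array left out it was always lower, from 8410 (without TCRM sham array 1) to 10713 (without ENDO sham array 2). Under the other alternatives it was between 9027 and 16684. All of these counts lay within 1.5 times of the reported count. The named clusters that differed were 132, between 106 and 127 with 1 array left out. With the replicate number as a fixed block 9941 clusters and 120 named ones differed, and with a random block 12079 did. Since same-numbered sham arrays did not deviate together, the replicate block says nothing of animals. It changed no call of a gene named by the rule. With array 5 of each infarction group left out the infarction count was 16679, against 16303, and Mir505 and S100a6 were lower in TCRM cells (-16.0 and -5.36 points).

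Of the 66 tested clusters named by the rule, 44 were called. Of these 44, 31 kept the call under every alternative run and 36 with each sham array left out. Genes that were not called changed sign as follows; none passed there. On log2 values as deposited the differences were -0.0602 for Il1r1, -0.12 for Il21, -0.20 for Penk and -0.29 for Egln3, where the median of the differences of all clusters was -0.22. With 1 sham array left out, in percentile points, Il21 ranged from -1.87 to 12.9, Penk from -7.22 to 14.6, Egln3 from -7.22 to 12.2, Enpp4 from -1.53 to 1.31, Csf1 from -4.40 to 2.48, Prdm1 from -6.07 to 1.02, Tgfb3 from -6.00 to 0.288 and Gpm6b from -18.1 to 0.474. The sign turned without TCRM sham array 1 for Il21, Penk and Egln3, without TCRM sham array 3 for Enpp4, Csf1, Prdm1, Tgfb3 and Gpm6b, without ENDO sham array 1 for Enpp4 and without ENDO sham array 3 for Enpp4 (-0.156) and Penk (-0.571). With array weights Enpp4 was at -0.578 and Csf1 at 0.752, and with array 5 counted as sham Enpp4 was at -0.868, Csf1 at 4.46 and Tgfb3 at 5.47. The cause was not tested. Signal over background is not given, so low percentiles cannot be told from no expression.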

Other observations

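Genes outside the rule for naming, chosen after their values were seen, included further membrane and signalling genes higher in TCRM cells after sham. Lrig1, a negative regulator of growth factor receptors, averaged 88.8 ± 2.95 in TCRM cells and 66.2 ± 9.21 in ENDO cells (percentiles, SD, n = 3 each, limma adjusted p = 0.0119). S1pr2, a sphingosine 1-phosphate receptor, averaged 78.1 ± 3.59 in TCRM cells and 63.0 ± 4.80 in ENDO cells (adjusted p = 0.0180). Pear1 averaged 78.9 ± 1.79 in TCRM cells and 54.0 ± 4.22 in ENDO cells (adjusted p = 0.00242), and Eea1, an early endosome tether, 84.9 ± 1.23 in TCRM cells and 58.2 ± 4.43 in ENDO cells (adjusted p = 0.00175). Slamf7, a receptor of activated lymphocytes, had 91.1, 83.0 and 78.8 in TCRM cells, against 51.5, 62.5 and 76.8 in ENDO cells, with no overlap and an adjusted p of 0.0514 that did not pass.

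Of named genes other than gene models, 54 were higher and 23 lower in TCRM cells after sham. Of the 54, 48 were also higher after infarction, 0 were lower and 6 did not pass, where 83.9% of all clusters higher after sham were also higher after infarction. Of the 23, 12 were also lower after infarction, 3 were higher and 8 did not pass, where 83.7% of all clusters lower after sham were also lower after infarction. All of these named genes were chosen by the authors for a difference between infarction and sham, so nothing is read from these counts.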
